A study of Mus musculus with 36 samples.

Results

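Secondary mouse embryonic fibroblasts (MEFs) titled 2ndMEF-KOS-ZERT2 were compared on day 3 and day 1 of doxycycline treatment. The cultures were chosen by their title and treatment labels, which gave 8 doxycycline-treated (Dox+) arrays of the 36 arrays in the series. There were 4 Dox+ arrays on day 3 and 4 on day 1, and on each day 2 arrays came from cultures with tamoxifen (Tmx+) and 2 from cultures without it (Tmx-). The same day comparison was made in untreated (Dox-) cultures of the same cells, with 4 arrays on day 3 and 4 on day 1 in the same tamoxifen arrangement, so that changes with culture time could be set beside those under doxycycline. All 16 cultures carried the KOS and Zscan4ERT2 transgenes, came from clone #1 of a hybrid between C57Bl/6 and 129 mice, and grew on gelatin in ES cell medium with the cytokine LIF. Doxycycline was given at 1.5 µg/ml and tamoxifen at 200 nM. The protocol of Dox-Tmx+ day 1 replicate 2 mentioned no tamoxifen. ES cells (v6.5), induced pluripotent stem (iPS) cells of the same transgenes (clone #2) and wild MEFs without tamoxifen, 2 arrays each, gave the levels of the starting and end states, and the wild MEFs had been grown in MEF medium.

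KOS stands for Klf4, Oct4 and Sox2, transcription factors that together can turn fibroblasts into pluripotent stem cells. Secondary fibroblasts come from an animal made with already engineered cells, so that every cell carries the same doxycycline-switched transgenes and a culture can be induced as a whole. Reprogramming is known to begin with loss of the fibroblast programme and gain of epithelial and proliferative expression, and to reach the stable pluripotency network late and in a minority of cells. Zscan4 is a zinc-finger protein of the early embryo that appears in bursts in ES cells, and its fusion to the ERT2 receptor domain moves into the nucleus when tamoxifen is present.

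On each array the sample carried Cy3 and was set against 1 Cy5-labelled reference RNA, made by combining RNA pooled over several mouse cell lines with 129ES cell RNA. A level is the log2 ratio of sample to reference for 1 probe, and a level of 1 probe is not compared with that of another. The files gave probe identifiers and probe sequences of 60 bases but no gene names, so most probes are described by identifier and sequence. The defining markers of fibroblasts and pluripotent cells could therefore not be read by name, and the cultures were set against the measured ES cell and MEF profiles in their place. The share of probes with a sample signal well above background ran from 62.9% to 77.1% over the 16 arrays, with both ends of that range in the 2 Dox+Tmx+ day 3 arrays. The 2 arrays of a group correlated at 0.986 to 0.996 across probes. Whether same-group samples were grown separately is not stated, and the spread behind the p-values may therefore be technical. Each of the 4 sets, Dox+ day 3, Dox+ day 1, Dox- day 3 and Dox- day 1, lay on its own slide, and the day 3 arrays were scanned on another day than the day 1 arrays. Slide, scan day and culture day cannot be told apart in any comparison of days. Tmx+ and Tmx- cultures shared slides, but on each slide the Tmx- arrays held positions 1 and 2 and the Tmx+ arrays 3 and 4. Slide position and tamoxifen state therefore cannot be told apart either.

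The 2 largest rises and the 2 largest falls in Dox+ cultures belonged to 4 probes, whose sequences are shown 5′ to 3′ because no gene name stands for them. Of the first, bases 26 to 55 are shown, with the polyadenylation-signal hexamer ATTAAA in capitals. The other 3 probes are shown whole and held neither that hexamer nor AATAAA.
Z00063643-1: attgggagagatATTAAAatgacaaacgtg
Z00022981-1: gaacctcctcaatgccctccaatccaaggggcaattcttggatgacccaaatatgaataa
Z00007756-1: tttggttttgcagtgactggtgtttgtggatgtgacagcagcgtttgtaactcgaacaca
Z00025177-1: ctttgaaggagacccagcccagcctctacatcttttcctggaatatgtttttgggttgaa

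Probe Z00063643-1 had log2 ratios of 2.05 and 2.00 in Dox+Tmx+ and 1.80 and 1.81 in Dox+Tmx- cultures on day 3, against -4.41 and -4.28 in Dox+Tmx+ and -4.58 and -4.61 in Dox+Tmx- cultures on day 1. All 4 day 3 arrays lay far above all 4 day 1 arrays. The difference between day 3 and day 1 was 6.39 (SE 0.05), or 83.6-fold, with an adjusted p of 3.13e-17 in limma. In Dox- cultures the probe averaged -6.88 on day 3 and -6.79 on day 1, a difference of -0.09 with an adjusted p of 0.146, so it was already higher on day 1 with doxycycline than without it. Its day 3 level with doxycycline was close to that of pluripotent cells, whose means were 1.70 in iPS cells and 1.53 in ES cells, against -6.05 in wild MEFs, where the probe was not well above background on either array. RNA was taken from whole cultures, so a change in the share of cells that hold a transcript and a change in its amount per cell cannot be told apart, here and in what follows.

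The next largest riser was far lower in pluripotent cells and fibroblasts than in induced cultures. Probe Z00022981-1 had log2 ratios of 5.77 and 5.61 in Dox+Tmx+ and 5.56 and 5.62 in Dox+Tmx- cultures on day 3, against 0.78 and 0.90 in Dox+Tmx+ and 0.54 and 0.61 in Dox+Tmx- cultures on day 1. The groups did not overlap, and the difference was 4.93 (SE 0.05), or 30.5-fold, with an adjusted p of 1.12e-16 in limma. Its level averaged 0.40 in iPS cells, 0.18 in ES cells and -0.09 in wild MEFs, and all 8 Dox- arrays lay between -0.11 and 0.02. It was well above background on both ES and both iPS arrays, on 3 of 4 Dox- arrays of each day, and on neither wild MEF array. On day 6 of doxycycline it averaged 5.19, so the high level was still present then.

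The 2 probes that fell furthest were both high in fibroblasts. Probe Z00007756-1 had log2 ratios of -2.89 and -2.83 in Dox+Tmx+ and -2.58 and -2.69 in Dox+Tmx- cultures on day 3, against 2.15 and 2.20 in Dox+Tmx+ and 2.27 and 2.26 in Dox+Tmx- cultures on day 1. The difference was -4.97 (SE 0.04), or 31.3-fold lower on day 3, with an adjusted p of 3.13e-17 in limma. Its day 3 arrays lay below both ES arrays, which averaged 0.72, while wild MEFs averaged 2.73 and iPS cells 0.27. In Dox- cultures it averaged 4.29 on day 3 and 4.38 on day 1, with an adjusted p of 0.0546 for the difference.

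Probe Z00025177-1 had log2 ratios of -1.29 and -1.22 in Dox+Tmx+ and -0.92 and -1.09 in Dox+Tmx- cultures on day 3, against 3.30 and 3.41 in Dox+Tmx+ and 3.35 and 3.39 in Dox+Tmx- cultures on day 1. The day 3 arrays were all low and the day 1 arrays all high. The difference was -4.49 (SE 0.05), or 22.5-fold lower on day 3, with an adjusted p of 2.54e-16 in limma. This probe also fell in Dox- cultures, by far less, with means of 3.88 on day 3 and 4.42 on day 1 and an adjusted p of 3.39e-07. All 4 of these probes were well above background on all 8 Dox+ arrays.

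**Figure D1:**
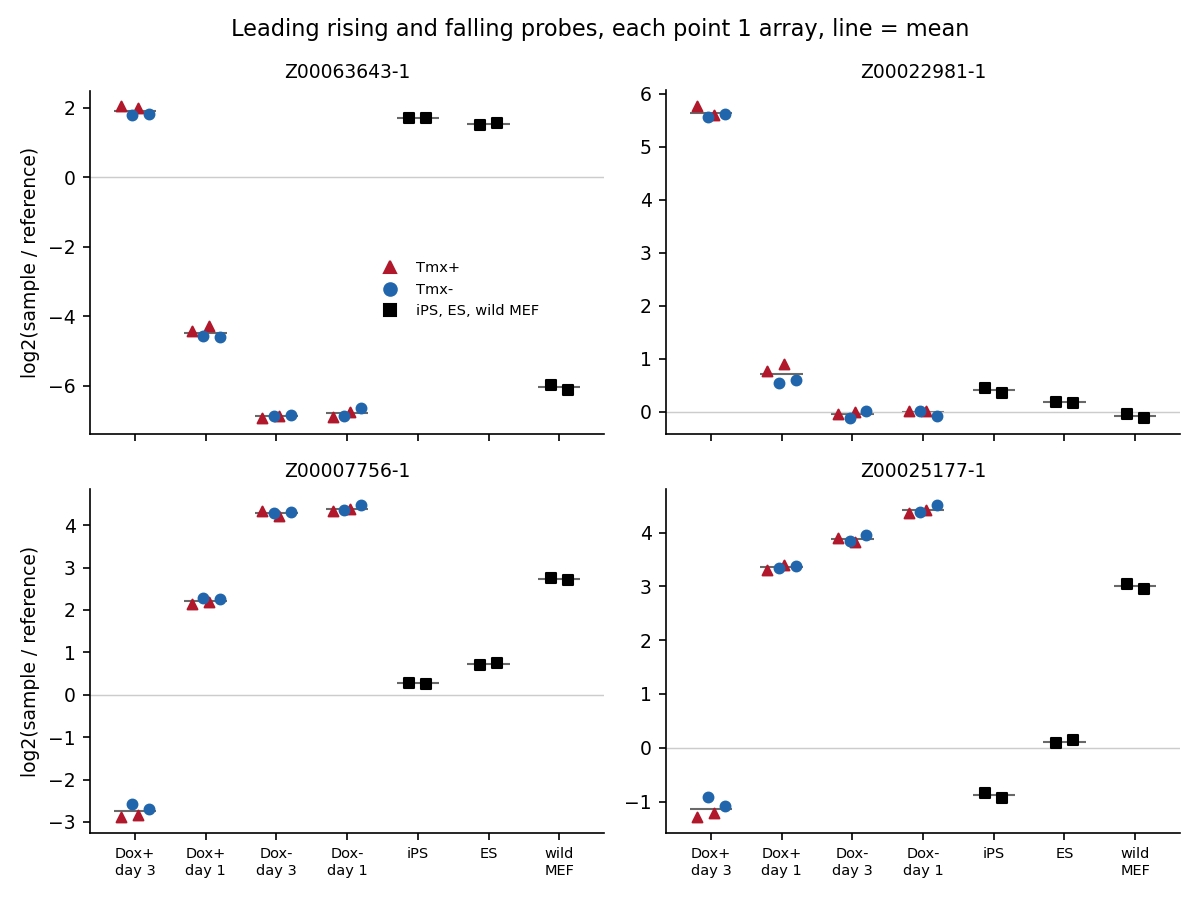
Log2 ratio of sample to reference (y axis) for the leading rising probes (upper panels) and falling probes (lower panels) on each array of Dox+ and Dox- cultures on day 3 and day 1 and of iPS cells, ES cells and wild MEFs. Each point is 1 array, triangles are Tmx+ and circles Tmx- cultures, and the line is the group mean; in each panel the 4 Dox+ day 3 points stand apart from the 4 Dox+ day 1 points.

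Across the array, the Dox+ cultures changed widely between the days. Limma called 20823 of the 31834 tested probes (65.4%, adjusted p under 0.05), 11244 of them higher on day 3 (35.3%) and 9579 lower (30.1%). Most of these changes were small, and the median SE of a difference was 0.044 on the log2 scale. A called change reached 2-fold for 1431 probes higher (4.5%) and 435 lower on day 3 (1.37%), so that 76.7% of the changes of that size were rises. All 4 day 3 arrays lay above all 4 day 1 arrays for 10130 probes (31.8%) and below them for 8472 (26.6%), counted whether or not limma called the probe.

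The balance of rises and falls depended on how the ratios were scaled. With the deposited Feature Extraction log ratio, 9215 probes were called higher and 12315 lower, so that 42.8% of calls were rises instead of 54%. Among changes of at least 2-fold, 2372 were then higher and 1273 lower, a share of rises of 65.1%. The excess of rises among the 2-fold changes was present under each scaling tried, with 65.1% as the lowest share, while the direction of the balance over all calls was not.

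In Dox- cultures, day 3 also differed widely from day 1, but by smaller amounts. There, 19161 probes were called (60.2%), 9502 higher (29.8%) and 9659 lower on day 3 (30.3%). Changes of 2-fold or more numbered 433 higher (1.36%) and 234 lower (0.735%). Across the 31834 probes, the day changes in Dox+ and Dox- cultures, which share no arrays, correlated at a Pearson r of 0.236 and a Spearman rho of 0.286, as a description across probes, which are not replicates.

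The day change differed between Dox+ and Dox- cultures for 18581 probes by limma's interaction contrast (58.4%), with 10220 more positive in Dox+ (32.1%) and 8361 more negative (26.3%). The difference was at least 2-fold for 1435 probes upwards (4.51%) and 760 downwards (2.39%). With the Feature Extraction log ratio these were 2359 and 1961, an upward share of 54.6% instead of 65.4%. The balance over all calls turned with the scaling, with 8329 more positive and 10023 more negative with the Feature Extraction log ratio, 7897 and 9012 with median centring, and 5912 and 6603 with the series matrix. Each doxycycline and day combination had its own slide, so that the slide and this difference cannot be told apart.

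Most large changes under doxycycline had no counterpart of at least 2-fold without it. Of the 1431 probes at least 2-fold higher in Dox+ cultures on day 3, 531 were called higher in Dox- cultures (37.1%, against 29.8% of all tested probes) and 321 lower (22.4%, against 30.3%). At least 2-fold higher there were 88, which was 6.15% of the Dox+ probes, against 1.36% of all tested probes, and 20.3% of the 433 Dox- probes. Of the 435 probes at least 2-fold lower in Dox+ cultures, 234 were called lower in Dox- cultures (53.8%, against 30.3%) and 138 higher (31.7%, against 29.8%). At least 2-fold lower there were 56, which was 12.9% of the Dox+ probes, against 0.735% of all tested probes, and 23.9% of the 234 Dox- probes.

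**Figure D2:**
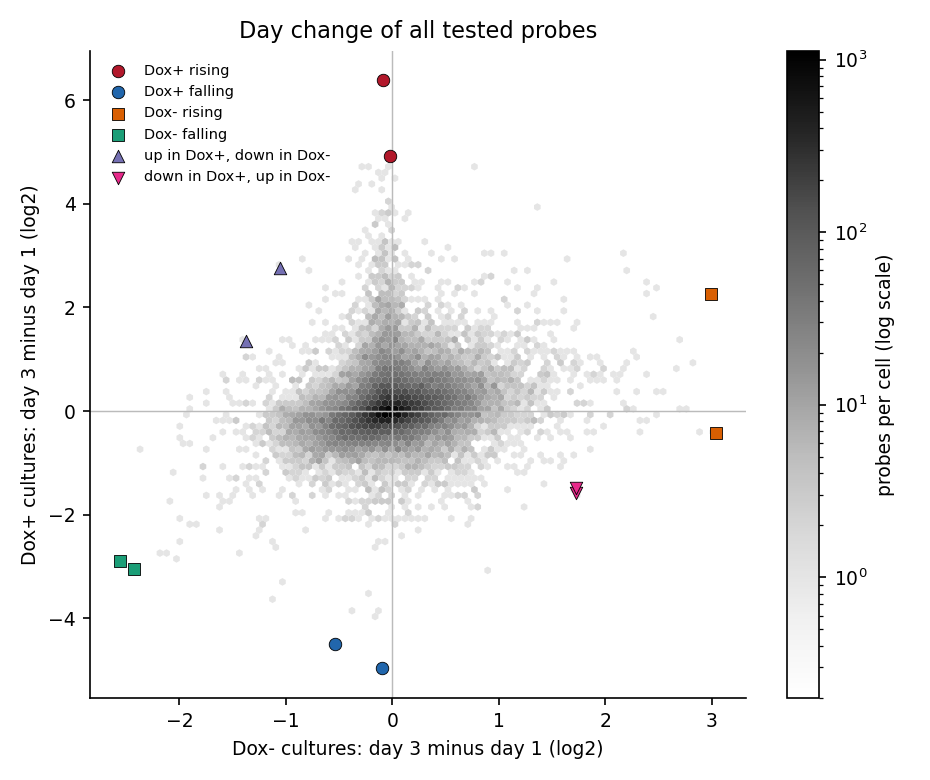
Day 3 minus day 1 in Dox+ cultures (y axis, log2) against the same in Dox- cultures (x axis, log2) for the 31834 tested probes, with the shade giving the number of probes per cell on a log scale. Coloured points are the named probes; the leading Dox+ probes reach 6.39 and -4.97 on the y axis while lying near 0 on the x axis.

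The probes that changed most with time in Dox- cultures behaved in several ways under doxycycline. Probe Z00022892-1 had log2 ratios of 2.26, 2.33, 2.48 and 2.23 on day 3, against -0.59, -0.58, -0.67 and -1.03 on day 1 in Dox- cultures, a rise of 3.04 (SE 0.07, adjusted p = 1.49e-12 in limma). In Dox+ cultures it fell by 0.43 (adjusted p = 9.75e-05). It was already higher on day 1 with doxycycline, where the 4 arrays lay between 1.63 and 1.86, and it averaged 6.68 in wild MEFs while not well above background in ES cells. Probe Z00054291-1 rose in both, by 2.25 in Dox+ and 2.99 in Dox- cultures.

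Both leading falls of Dox- cultures occurred with doxycycline as well. Probe Z00041156-1 fell by 3.04 in Dox+ and fell by 2.42 in Dox- cultures, and the difference between these changes was -0.61 (adjusted p = 9.02e-06 in limma). Probe Z00031819-1 fell by 2.89 in Dox+ and fell by 2.56 in Dox- cultures, with a difference of -0.33 (adjusted p = 0.0116), and it was well above background on 2 of the 4 Dox+ day 3 arrays. The 2 probes aligned without gaps over 35 bases, 30 of them equal (85.7%), so they may take up related transcripts and should not be read as independent.

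Opposite changes of at least 2-fold were rare. Only 8 probes were at least 2-fold higher on day 3 in Dox+ and at least 2-fold lower in Dox- cultures, and 11 probes showed the reverse, out of 31834. Probe Z00042327-1 had log2 ratios of 4.23, 4.20, 3.90 and 3.96 in Dox+ cultures on day 3, against 1.47, 1.48, 1.04 and 1.24 on day 1, a rise of 2.77 (SE 0.05, adjusted p = 1.03e-14 in limma). In Dox- cultures its values were -0.81, -0.81, -0.89 and -0.93 on day 3, against 0.12, 0.26, 0.15 and 0.26 on day 1, a fall of 1.06 (adjusted p = 3.2e-10). The 4 groups of arrays did not overlap. Probe Z00015969-1 went the other way, with values of -2.68, -2.68, -2.57 and -2.65 in Dox+ cultures on day 3, against -1.13, -1.12, -0.98 and -1.05 on day 1. In Dox- cultures it lay at 0.27, 0.31, 0.25 and 0.25 on day 3, against -1.46, -1.54, -1.44 and -1.40 on day 1. It fell by 1.57 with doxycycline and rose by 1.73 without it, and its Dox+ day 3 level was close to the ES cell mean of -2.74 while its Dox- day 3 level was close to the wild MEF mean of 0.21.

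To separate the response under doxycycline from culture time, risers were defined as probes called at least 2-fold higher on day 3 in Dox+ cultures, with no overlap between the 4 day 3 and 4 day 1 arrays, and with a day change called more positive in Dox+ than in Dox- cultures. Fallers were defined the same way downwards. There were 1366 risers (4.29% of tested probes) and 400 fallers (1.26%). The changes within these lists are fixed by their definition and are given as a description. Among risers 304 changed at least 4-fold, 73 at least 8-fold and 16 at least 16-fold. Among fallers these numbers were 56, 10 and 3. The day change in Dox- cultures was under 0.25 on the log2 scale for 881 risers (64.5%) and 149 fallers (37.2%), against 66.4% of all tested probes.

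Some risers came above background between the days. On 0 of 4 Dox+ day 1 arrays and on all 4 Dox+ day 3 arrays, 77 risers were well above background (5.64%), against 222 of all tested probes (0.697%). Risers were chosen for a rise between these arrays, which favours that pattern, so the share is given as a description. Of the 77, 62 were not well above background on any of the 8 Dox- arrays, so they passed the signal filter only through the Dox+ day 3 arrays. On all 4 Dox+ arrays of day 6, 76 of the 77 were well above background. Only 25 were well above background on both ES arrays (32.5%), 21 on both iPS arrays (27.3%) and 3 on both wild MEF arrays (3.9%). These probes were selected for being dim on day 1, so their shares are not set against those of all tested probes. Of the fallers, 0 were well above background on all 4 Dox+ day 1 arrays and on none of the day 3 arrays, against 50 of all tested probes (0.157%).

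Base composition and hexamers were counted in the probes of each list. Median GC content was 45% in risers, 43.3% in fallers, 40% in the 77 risers that came above background and 45% in all tested probes. The polyadenylation-signal hexamers AATAAA or ATTAAA, searched on the strand as printed, lay in 14.1% of risers, 14% of fallers, 20.8% of the 77 risers that came above background (16 probes) and 10.3% of all tested probes. Probes that share at least 20 bases with another tested probe may take up the same or related transcripts. Each of the 120 risers and 16 fallers with such a partner had it called in the same direction. Partners could belong to the same list, and the share over all such pairs was not counted. Such probes should not be read as independent transcripts.

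The arrays of ES cells and wild MEFs entered neither list and show which of these probes distinguish pluripotent cells from fibroblasts. Probes with a called excess of at least 4-fold in ES cells over wild MEFs (ES-high, 1143 of 28821 probes tested in both fits, 3.97%), or in wild MEFs over ES cells (MEF-high, 2491, 8.64%), were counted among risers and fallers. Of the risers, 240 were ES-high (17.6%, against 3.59% of all tested probes) and 143 were MEF-high (10.5%, against 7.82%). The largest group of risers, 816 probes (59.7%), was neither, and 167 were not tested in ES cells and MEFs. Of the fallers, 197 were MEF-high (49.2%) and 16 were ES-high (4%).

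ES-high probes had day changes of opposite sign with and without doxycycline. The median day change of ES-high probes was 0.19 in Dox+ and -0.165 in Dox- cultures, against 0.003 and -0.012 for all tested probes. In Dox+ cultures 620 ES-high probes were called higher on day 3 (54.2%, against 35.3% of all tested probes) and 287 lower (25.1%, against 30.1%). In Dox- cultures 146 were called higher (12.8%, against 29.8%) and 681 lower (59.6%, against 30.3%). For the difference between the day changes, 784 ES-high probes were called more positive in Dox+ cultures (68.6%, against 32.1%) and 117 more negative (10.2%, against 26.3%), with a median of 0.449, against 0.02 for all tested probes.

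MEF-high probes were called lower about as often as higher under doxycycline. Their median day change was -0.004 in Dox+ cultures. There, 1051 probes were called higher on day 3 (42.2%, against 35.3% of all tested probes) and 1065 lower (42.8%, against 30.1%). In Dox- cultures the median was 0.282, with 1629 called higher (65.4%, against 29.8%) and 493 lower (19.8%, against 30.3%). The median difference between these day changes was -0.287. For this difference, 580 MEF-high probes were called more positive in Dox+ cultures (23.3%, against 32.1%) and 1478 more negative (59.3%, against 26.3%). At least 2-fold changes in Dox+ cultures were called upwards for 6.82% of MEF-high and 21.1% of ES-high probes, against 4.5% of all tested probes. Downwards they were called for 8.23% of MEF-high and 1.66% of ES-high probes, against 1.37% of all. The median day changes kept their sign under the 3 other scalings of the ratios that were tried, for both lists and both doxycycline states. Their sizes moved. In Dox+ cultures they were 0.165 to 0.388 for ES-high and -0.087 to -0.066 for MEF-high probes, where the reported -0.004 was near 0. In Dox- cultures they were -0.273 to -0.133 for ES-high and 0.289 to 0.308 for MEF-high probes.

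The share of large changes followed the size of the difference between ES cells and MEFs. Among the 215 probes more than 16-fold higher in ES cells, 33.5% were at least 2-fold higher in Dox+ cultures on day 3 and 1.86% lower. Among the 563 probes at least 16-fold lower in ES cells, 6.57% were higher and 17.9% lower. Between 2-fold lower and 2-fold higher in ES cells lay 19239 probes, of which 2.9% were higher and 0.593% lower. The median day change of the highest bin was 0.45 in Dox+ and -0.16 in Dox- cultures, and that of the lowest bin -0.18 in Dox+ and 0.47 in Dox- cultures. Across all 28821 probes the Dox+ day change and the difference between ES cells and MEFs had a Pearson r of 0.113 and a Spearman rho of -0.013. The Dox- day change had an r of -0.387 and a rho of -0.401, so that across probes a higher level in ES cells went with a lower day change in Dox- cultures. These correlations describe probes, not replicates.

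**Figure D3:**
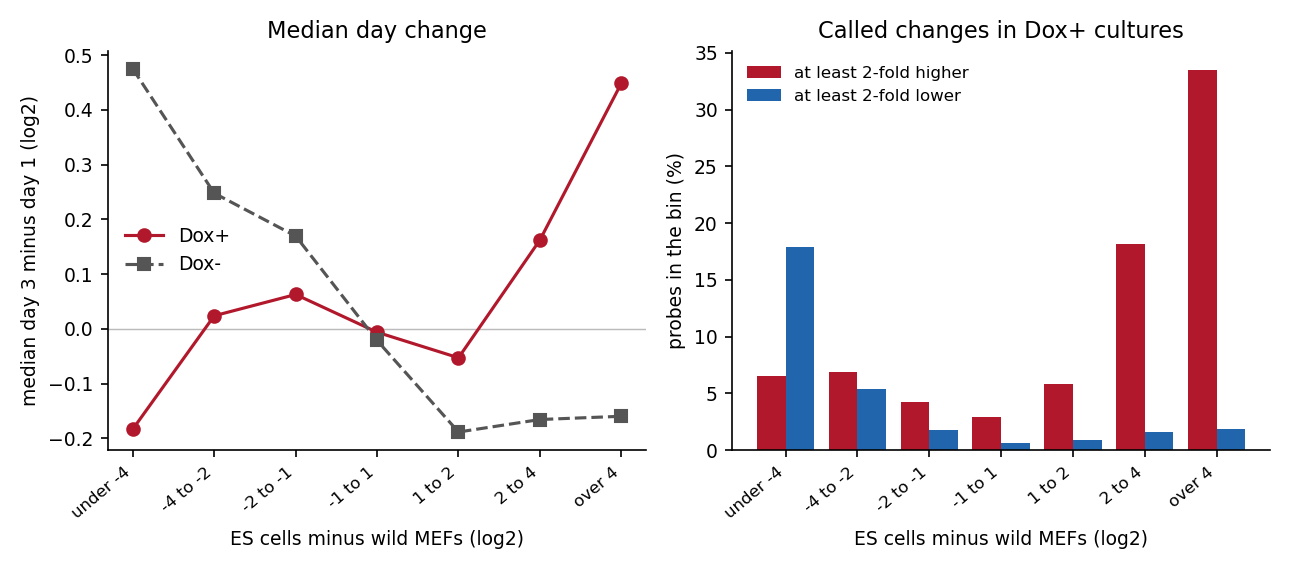
Tested probes binned by the log2 difference between ES cells and wild MEFs (x axis, both panels). The left panel gives the median day 3 minus day 1 change (log2) in Dox+ and Dox- cultures, and the right panel the percentage of the bin at least 2-fold higher or lower in Dox+ cultures; the highest bin reaches 33.5% higher, and the lowest bin 17.9% lower.

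The levels that risers reached on day 3 were mostly above those of pluripotent cells. The median level of the 1366 risers was 1.43 in Dox+ cultures on day 3 (arrays between 1.34 and 1.54) and -0.09 on day 1, against -0.53 in Dox- cultures on day 3 and -0.66 on day 1. It was -0.03 in iPS cells, 0.01 in ES cells and -0.31 in wild MEFs. All 4 Dox+ day 3 arrays lay above both ES arrays for 1097 risers (80.3%, against 47.3% of all tested probes) and below both for 211 (15.4%, against 34.3%). For 996 risers (72.9%) they lay above both ES arrays and both wild MEF arrays, against 23.8% of all tested probes. The risers were chosen for a high day 3 level, which favours such a position, so these shares are given as a description.

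The ES-high risers were placed differently. ES-high probes were chosen for a high level on the same ES arrays, which favours a place below those arrays. Of these 240 probes, 155 had all 4 Dox+ day 3 arrays below both ES arrays (64.6%) and 63 above (26.2%). Of the 816 risers that were neither ES-high nor MEF-high, 725 lay above both ES arrays (88.8%). The median distance of a riser from the ES cell mean was 1.81 on day 3 and 0.98 on day 1, and 26.6% of risers were nearer to ES cells on day 3. Fallers had a median distance of 1.33 on day 3 and 2.14 on day 1, with 71.8% nearer on day 3. Of all tested probes, 44.2% were nearer on day 3. Risers and fallers were chosen by their levels on the same Dox+ arrays, so these distances and shares are given as a description.

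The median level of fallers was -0.56 in Dox+ cultures on day 3 and 0.90 on day 1, against 0.84 in Dox- cultures on day 3 and 1.00 on day 1. It was -0.82 in iPS cells, -0.66 in ES cells and 0.99 in wild MEFs. Single fallers lay on both sides of the ES level. All 4 Dox+ day 3 arrays lay above both ES arrays for 244 (61%, against 47.3% of all tested probes). They lay below both for 140 (35%, against 34.3%). Fallers were chosen for a low level on these day 3 arrays, so the shares are given as a description. On day 6 of doxycycline the median was -0.73 for fallers and 1.23 for risers. The 1143 ES-high probes as a list remained far from the ES level, with a median of -1.01 in Dox+ cultures on day 3 and -1.35 on day 1, against 1.05 in iPS cells and 1.1 in ES cells. The 2491 MEF-high probes had a median of 0.37 in Dox+ cultures on day 3 and 0.38 on day 1, against 1.22 in wild MEFs and -1.85 in ES cells.

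**Figure D4:**
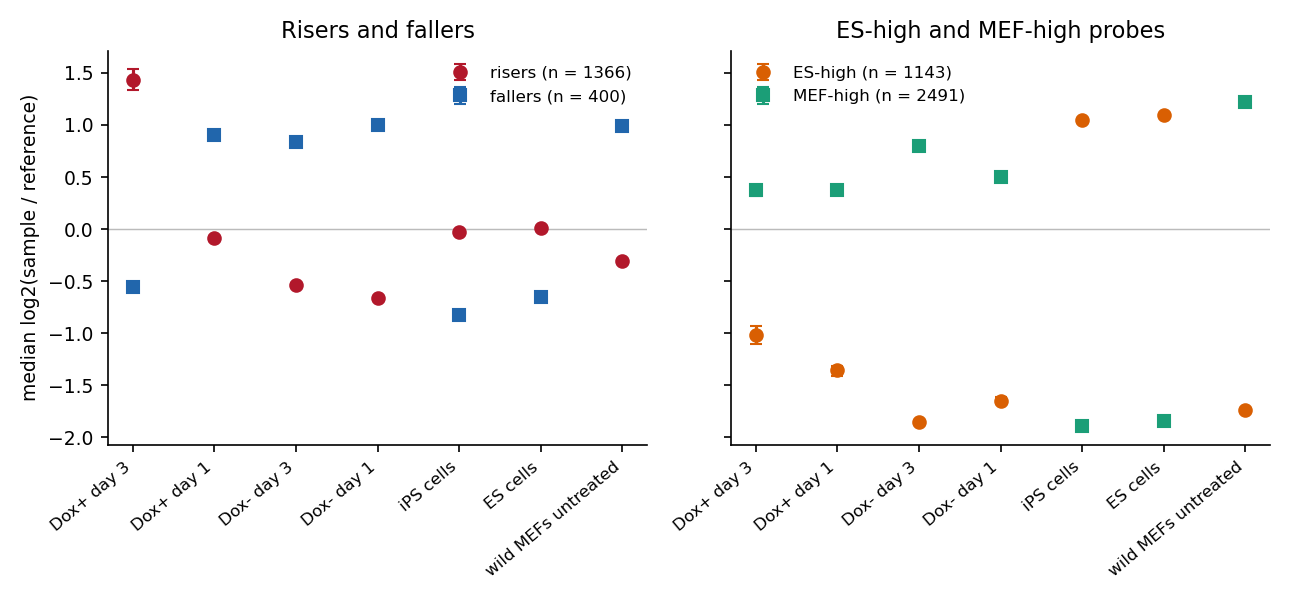
Median log2 ratio of sample to reference (y axis) of risers and fallers (left) and of ES-high and MEF-high probes (right) in Dox+ and Dox- cultures on day 3 and day 1, iPS cells, ES cells and untreated wild MEFs. Points are means over the arrays of the list median and bars span the lowest and highest array; risers reach 1.43 on Dox+ day 3, and ES-high probes stay at -1.01.

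A small set of probes could be tied to a gene, because at least 30 bases of the probe matched the first bases after the annotated start of 1 RefSeq gene on the same strand. This matching was chosen after the data were seen. It compared probes with the genome only up to 50 bases after the start, and probe bases beyond that point were not compared. The genes are therefore a sample without design. Of 128 such probes, 80 were tested, for 80 genes. In Dox+ cultures 10 were called higher on day 3 (12.5%) and 31 lower (38.8%), against 35.3% and 30.1% of all tested probes, and 1 rose and 1 fell at least 2-fold. The matched bases of 4 of these genes are shown (RefSeq, GRCm38.p6), since these are the probes described next.
Crxos, chr7:15896127-15896156, + strand: tacaggttggagggtccctgctcagtgcgc
Gm3194, chr14:5460362-5460391, - strand: agccagagagcaccgtgtccctgcgctctg
Cyba, chr8:122432911-122432940, - strand: gccgatcagtgaggacttgcgaagtgggct
Acta2, chr19:34255344-34255373, - strand: caaggggctatataacccttcagcgttcag

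The probe on the first bases of Crxos (Z00070587-1), a homeobox gene named for its place on the strand opposite Crx, had log2 ratios of 0.53, 0.43, 0.45 and 0.38 in Dox+ cultures on day 3, against -0.62, -0.60, -0.72 and -0.66 on day 1. The groups did not overlap, and the rise was 1.1 (SE 0.04, adjusted p = 1.57e-11 in limma), against 0.37 in Dox- cultures. The probe averaged -2.25 in ES cells and 0.62 in wild MEFs, which made it MEF-high. The probe on the first bases of Gm3194 (Z00063593-1), a predicted gene, had values of -1.25, -1.22, -1.12 and -1.29 on day 3, against -0.17, -0.14, -0.14 and -0.05 on day 1. It fell by 1.09 in Dox+ (adjusted p = 2.34e-11) and by 0.14 in Dox- cultures, and it was ES-high. Predicted genes of this kind can have near-identical copies elsewhere, so the assignment is uncertain.

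The probe for Cyba (Z00064241-1), which encodes a membrane subunit of NADPH oxidase, had log2 ratios of -0.85, -0.71, -0.84 and -0.92 in Dox+ cultures on day 3, against 0.14, 0.02, 0.13 and 0.21 on day 1. It fell by 0.95 (adjusted p = 4.92e-08 in limma) without overlap between the days. In Dox- cultures the change was -0.11 with an adjusted p of 0.192, and the probe was MEF-high. The probe for Acta2 (Z00064434-1), the smooth muscle actin of contractile fibroblasts, had values of -0.16, -0.25, -0.14 and -0.12 in Dox+ cultures on day 3, against 0.45, 0.42, 0.40 and 0.41 on day 1. It fell by 0.59 (SE 0.06, adjusted p = 4.68e-07), and 1 of the 4 day 3 arrays was not well above background. In Dox- cultures it fell by 0.25 (adjusted p = 0.00146), and the difference between the day changes was -0.34 (adjusted p = 0.00215 in limma). The Acta2 probe was neither ES-high nor MEF-high.

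The probe for Gm6882 (Z00071543-1), a predicted gene, had log2 ratios of 0.81, 0.89, 0.46 and 0.44 in Dox+ cultures on day 3, against 0.02, -0.09, -0.09 and -0.09 on day 1. It was not well above background on any day 1 array, so it was at least 1.45-fold higher on day 3 (adjusted p = 4.02e-09 in limma). The probe for Mif (Z00064281-1), a secreted cytokine, fell by 0.63 in Dox+ and by 0.11 in Dox- cultures, and the probe for Rps27l (Z00063927-1), a ribosomal protein, fell by 0.59 in Dox+ cultures. The probe for H3f3a (Z00032510-1), which encodes the replication-independent histone H3.3, fell by 0.47 in Dox+ and by 0.15 in Dox- cultures. The probe for Ttll3 (Z00001235-1), a tubulin glycylase, fell alike in both, by 0.52 in Dox+ and 0.55 in Dox- cultures, with an adjusted p of 0.715 for the difference. The probe for Ntng1 (Z00041441-1), which encodes the axon guidance protein netrin-G1, fell by 0.43 in Dox+ cultures and rose by 0.36 in Dox- cultures (adjusted p of the difference 7.57e-07 in limma). The probe for Frg2f1 (Z00026744-1) fell by 0.50 in Dox+ and rose by 0.21 in Dox- cultures. The probe for Snrpf (Z00063560-1), a core protein of the splicing snRNPs, fell by 0.42 in Dox+ and fell by 0.31 in Dox- cultures. The probe for Lax1 (Z00064604-1), a lymphocyte adaptor protein, rose by 0.41 in Dox+ cultures.

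The day change under doxycycline was also compared between Tmx+ and Tmx- cultures. All of these cultures carried Zscan4ERT2, so tamoxifen itself and active Zscan4-ERT2 protein cannot be told apart, here and in what follows. In Dox+Tmx+ cultures 17912 probes were called (56.3%), with 1541 at least 2-fold higher (4.84%) and 451 at least 2-fold lower on day 3 (1.42%). In Dox+Tmx- cultures 17730 were called (55.7%), with 1341 at least 2-fold higher (4.21%) and 442 at least 2-fold lower (1.39%). Both lists shared 1216 of the higher probes, 78.9% of those in Dox+Tmx+ and 90.7% of those in Dox+Tmx- cultures, and 382 of the lower probes, 84.7% and 86.4% of the same lists. Across 31834 probes the 2 day changes correlated at a Pearson r of 0.964 and a Spearman rho of 0.917. The share of rises among calls moved with the scaling here too. In Dox+Tmx+ cultures 8067 probes were higher and 10570 lower with the Feature Extraction log ratio, where rises made up 62.8% of 2-fold changes, against 77.4% as reported, and 66.4% with the series matrix. In Dox+Tmx- cultures 7955 were higher and 9889 lower with the Feature Extraction log ratio, and 6765 higher and 10173 lower with median centring. Rises then made up 64.4% and 64.9% of 2-fold changes, against 75.2% as reported.

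The test of the difference itself called 514 probes (1.61%), 444 with a more positive day change in Dox+Tmx+ cultures (1.39%) and 70 with a more negative one (0.22%). At least 2-fold differences were called for 18 probes upwards (0.0565%) and 0 downwards, and 3961 of the 31834 probes had an unadjusted p under 0.05. With the series matrix 217 were called upwards and 77 downwards, an upward share of 73.8% instead of 86.4%. Median centring in place of loess moved the median difference of all probes to 0.115 and gave 1172 upward calls. Leaving out any 1 of 7 of the 8 Dox+ arrays lowered the calls to between 243 and 306, while 431 were left without Dox+Tmx- day 1 replicate 2. The count of calls in this comparison is therefore less stable than the counts between days.

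Probe Z00024320-1 rose in both tamoxifen states and further with tamoxifen. It had log2 ratios of 3.11 and 3.00 in Dox+Tmx+ and 1.72 and 1.67 in Dox+Tmx- cultures on day 3, against 0.23 and 0.15 in Dox+Tmx+ and 0.20 and 0.04 in Dox+Tmx- cultures on day 1. On day 3 the Tmx+ arrays lay above the Tmx- arrays, and on day 1 the ranges overlapped. The difference between the day changes was 1.29 (SE 0.09, adjusted p = 4.85e-05 in limma), but with the Feature Extraction log ratio it was 0.197 with an adjusted p of 0.932, so the call depends on the scaling. The probe was not well above background on any Dox- array. Probe Z00031338-1 had -1.49 and -1.50 in Dox+Tmx+ and -2.39 and -2.82 in Dox+Tmx- cultures on day 3, against -3.42 and -3.32 in Dox+Tmx+ and -3.06 and -3.29 in Dox+Tmx- cultures on day 1. Its difference was 1.31 (SE 0.16, adjusted p = 0.000919), and with all 36 arrays in the fit the adjusted p was 0.335.

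The most negative differences belonged to probes that rose less with tamoxifen. Probe Z00022184-1 had 0.52 and 0.54 in Dox+Tmx+ and 1.43 and 1.30 in Dox+Tmx- cultures on day 3, against -0.30 and -0.38 in Dox+Tmx+ and -0.27 and -0.42 in Dox+Tmx- cultures on day 1. The Tmx+ arrays were the lower ones on day 3, and the difference was -0.84 (adjusted p = 0.00209 in limma), but with all 36 arrays in the fit the adjusted p was 1. Probe Z00029447-1 rose by 0.55 in Dox+Tmx+ and by 1.40 in Dox+Tmx- cultures, a difference of -0.86 (adjusted p = 0.000725). With the Feature Extraction log ratio this difference was 0.006, with an adjusted p of 0.999.

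ES-high probes were frequent among those with a more positive day change under tamoxifen. Of the 444 probes, 121 were ES-high (27.3%) and 19 MEF-high (4.28%). Of the 70 probes with a more negative day change, 3 were ES-high (4.29%) and 25 MEF-high (35.7%). The shares in all tested probes were 3.59% and 7.82%. The 444 overlapped the risers, with 194 in both lists (43.7%, against 4.29% of all tested probes), and 17.6% of risers were ES-high. Of the 444, 405 were called higher on day 3 in Dox+Tmx+ cultures (91.2%, against 31.4% of all tested probes). In Dox+Tmx- cultures 332 were called higher (74.8%, against 30.5%) and 66 lower (14.9%, against 25.2%). The 444 were selected by the same day changes, which favours rises in Dox+Tmx+ cultures. These counts are therefore given as a description. The median difference was 0.107 for ES-high and -0.06 for MEF-high probes, against 0.006 for all tested probes. With median centring these were 0.254 and 0.103, against 0.115 for all, so that MEF-high probes changed sign but stayed below the median of all probes.

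**Figure D5:**
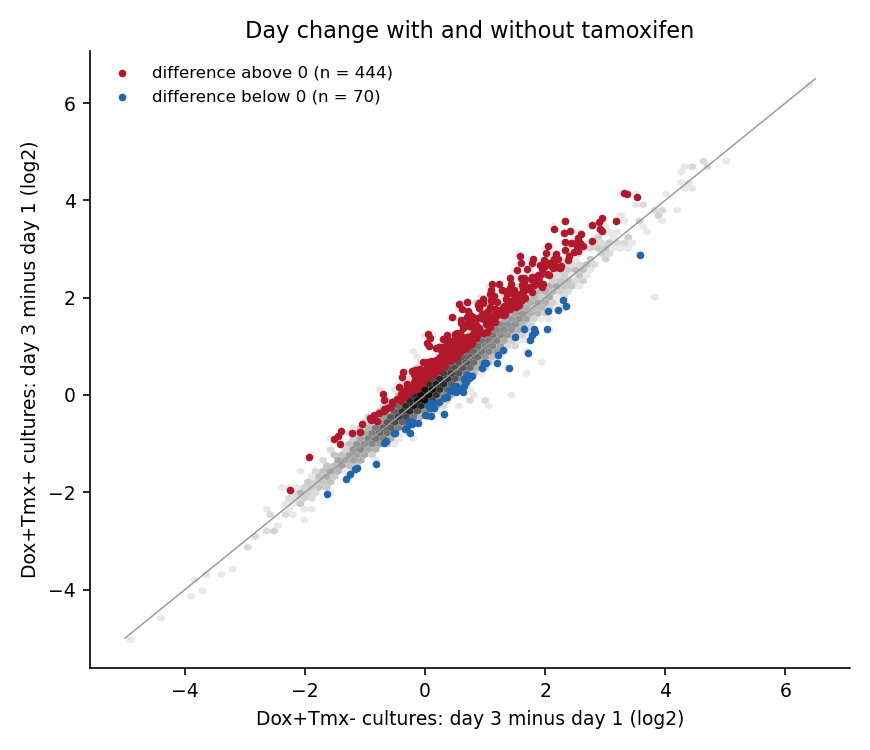
Day 3 minus day 1 in Dox+Tmx+ cultures (y axis, log2) against the same in Dox+Tmx- cultures (x axis, log2) for the tested probes, with the line of equal change. Coloured points are the 444 probes called with a more positive and the 70 called with a more negative day change in Dox+Tmx+ cultures; most probes follow the line, with a Pearson r of 0.964.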

How the data were processed

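RNA was measured on 2-colour Agilent arrays. Per the file headers, the scans were quantified by Feature Extraction (Agilent, version 9.5.1.1). Of 43451 spots, 42034 measured 42006 probes and the others were controls. From the deposited files, 2 unnormalized intensity values per channel were taken for every spot, its mean and its local background's median. The deposited log10 ratio, red over green per the file headers, served as an alternative with its sign turned. The series matrix deposited by the authors, with 25030 probes and array medians of 2.37 to 2.46, was read as log10 sample brightness. Within 0.01 on the log2 scale, 85.3% of its values equalled the deposited log10 ratio plus 1 constant per probe, so it is no independent check of that ratio. How that constant was set is not given in the sources used here.

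Background was corrected by normexp with an offset of 50 and ratios by loess within arrays (limma 3.58.1, R 4.3.3). Per the labels every sample was labelled with Cy3, so dyes were not swapped. Log2 ratios are sample over reference, computed here from the deposited intensity values. A probe was tested if at least 1 of the 8 groups had both sample signals well above background, which left 31834 and removed 10172. Limma was fitted to 16 arrays with group means as coefficients (residual degrees of freedom 8, prior 4.91), day changes were averaged over tamoxifen states, and p-values were two-sided and Benjamini-Hochberg adjusted over all tested probes. The fit was checked on simulated data. Precision is limited by how many arrays a group has.

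The members and lists were chosen with earlier results of these data known. The rule on named genes asked for protein matches of probes, and no protein sequences were in the tables used here. The gene and marker lists could therefore not be applied except for Acta2, the only member that a start match reached. The text names the 2 largest rising and falling probes per comparison and the 13 start-matched genes with the largest changes in Dox+ cultures. Replicate numbers were not used as pairs in the main fit, since deviations of same-numbered arrays correlated at -0.061 to 0.042 between days. Pairing of Tmx+ and Tmx- cultures within a day was not checked in this way. Alternatives were other background corrections and scalings, no filter, the series matrix, other arrays in the fit, a replicate block and each array left out. Leaving out the second day 1 array of both Dox- groups, and a replicate block for ES cells against wild MEFs, were added after seeing the data.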

Additional observations from a re-analysis of the deposited data

Results flagged for a closer look

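The day change differed between Dox+ and Dox- cultures for 18581 probes (58.4%) by the interaction contrast in limma, which compares the same contrast in 2 treatments. Of all tested probes, 2402 (7.55%) were called higher on day 3 in Dox+ and lower in Dox- cultures. Another 2191 (6.88%) were called lower in Dox+ and higher in Dox- cultures. Taken singly, 35.3% of tested probes were called higher and 30.1% lower in Dox+ cultures, and 29.8% and 30.3% in Dox- cultures. Many opposite calls can therefore arise without a link between the 2 changes. The day change differed between Dox+Tmx+ and Dox+Tmx- cultures for 514 probes (1.61%). Groups held 2 arrays each, too few to single out an array against the others.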

How the results depend on the processing

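Slide as a block was not run, since each slide held 1 day and 1 doxycycline state. Signal over background limits dim probes, 10172 of which were not tested.

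Alternatives moved the following counts by over 1.5 times, and the cause was not tested. With the Feature Extraction log ratio the counts at least 2-fold higher and lower were 2372 and 1273 in Dox+, 1191 and 615 in Dox-, 2359 and 1961 for the difference, 2424 and 1437 in Dox+Tmx+, and 2206 and 1218 in Dox+Tmx- cultures. Fallers then numbered 1067, and 6493 probes differed between ES cells and wild MEFs, 3032 of them at least 4-fold higher in ES cells. The series matrix, which tests fewer probes, gave 6522 higher and 789 at least 2-fold lower in Dox+ cultures. In Dox- cultures it gave 12607 calls, 6299 higher and 6308 lower, 746 and 396 of at least 2-fold. It gave 5912 higher and 1258 at least 2-fold lower for the difference, 5800 and 868 in Dox+Tmx+, 5816 and 789 in Dox+Tmx- cultures, and 691 fallers.

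For tamoxifen, calls numbered 140 (120 upwards, 20 downwards, 6 at least 2-fold downwards) with the Feature Extraction log ratio, 1228 (1172 upwards) with median centring, and 294 (217 upwards; 46 up and 26 down at 2-fold) with the series matrix. With all 36 arrays there were 85 (77 upwards, 8 downwards, 7 at least 2-fold upwards), and without the filter 45 were downwards. With the replicate block, 46 were downwards, 376 upwards and 422 called in all, against 514 without the block, and the block moved no other count past 1.5 times. For Z00029447-1 the tamoxifen difference turned to 0.006 with the Feature Extraction log ratio. Of the risers tested under each alternative other than left-out arrays, 83.5% to 100% met the definition again, and of the fallers 92.8% to 99.8%. Leaving out the second day 1 array of both Dox- groups gave 8773 higher and 8641 lower probes in Dox- cultures.

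Each array left out in turn gave 19474 to 19864 calls in Dox+ cultures (10685 to 10830 higher, 8788 to 9075 lower; at 2-fold 1401 to 1452 and 426 to 450). Dox- cultures had 17634 to 19755 (8848 to 9693, 8786 to 10062; 411 to 457, 222 to 246), and the difference 17695 to 19365 (9740 to 10688, 7906 to 8677; 1421 to 1455, 740 to 791). Dox+Tmx+ had 15452 to 15793 (8847 to 9049, 6538 to 6751; 1493 to 1580, 456 to 467) and Dox+Tmx- 15328 to 15685 (8592 to 8762, 6736 to 6945; 1332 to 1348, 422 to 459). The tamoxifen difference had 243 to 431 (220 to 358, 21 to 73; 12 to 30, 0 to 11).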
